A study of Mus musculus with 6 samples.

Results

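The genes described here are the heart and blood vessel development genes among those listed as changed in hypomorphic mouse hearts. They are the protein-coding genes of the deposited table to which the authors' annotation attaches at least 1 of 4 gene ontology (GO) terms, namely heart development, angiogenesis, blood vessel development or vasculogenesis. Of 1492 protein-coding genes listed, 30 carry such a term, and 27 are described after Isl1, Fgf8 and Epor were left out by the rule. RNA was taken from whole hearts of C57BL/6 embryos at stage E11.5 (embryonic day), 3 labelled WT, which the design text calls littermate controls, and 3 labelled Hypomorph, from a line with reduced expression of the cardiac homeobox factor NKX2-5. For genotyping the methods name a gfp and an IRES-Cre line of Nkx2-5, and which alleles each heart carried is not given in the sources used here.

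The embryonic heart grows by addition of myocardium to its poles while its chambers form trabeculae. Vessels arise from endothelial precursors (vasculogenesis) and by sprouting from existing vessels (angiogenesis). Ligands secreted by the myocardium and the epicardium, such as angiopoietins and fibroblast growth factors (FGFs), act on receptors of neighbouring endothelium and muscle, and transcription factors such as NKX2-5, TBX1 and the forkhead proteins set which cells respond. NKX2-5 is needed for chamber formation and for the conduction system.

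The table holds a gene only if it passed the authors' AC test, a test of read counts, with a fold change of at least 1.5, and it gives 1 value per group and none for a single heart. The values below are taken as the authors' means over 3 hearts, the spread between hearts is unknown, and no test between groups was run. Raw reads are the authors' group means before normalization. The log2 difference is hypomorph minus control in the authors' normalized log2 values. Over all protein-coding genes listed, this difference exceeded the log2 ratio of raw means by a median of 0.47, so the normalization moved genes towards higher values in hypomorphic hearts. Nkx2-5 itself was not among the genes listed, so its reduction was not analysed here. Of 9 cardiomyocyte markers, Nppa and Myl7 were listed and the other 7 were not among the genes listed. Xist had 16340 raw reads in the control group against 53613 in the hypomorphic group (log2 difference 8.74 in normalized values, but 1.71 as the log2 ratio of raw means). Whether the sexes of the hearts or the red blood cell genes described further on had a part in the values of the 27 genes was not tested.

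Relative to controls, hypomorphic hearts had lower values of 16 of the 27 genes and higher values of 11. The share lower was 59.3%, against 58.0% of all protein-coding genes listed, and the share higher was 40.7%, against 42.0%. The split by direction was thus near that of the whole table. Changes of at least 2-fold were seen for 15 of the 27 (55.6%), against 32.5% of all protein-coding genes listed. The median fold was 2.08 among the 27 and 1.77 in the whole table. In raw reads, without the authors' normalization, 16 of the 27 (59.3%) were lower by at least 1.5-fold, against 58.1% of all protein-coding genes listed, and they were the same 16 genes. Only 6 of the 11 higher genes (Angpt2, Th, Stra6, Foxh1, Tdgf1 and Pax6) passed 1.5-fold in raw reads (22.2% of the 27, against 11.1% of all protein-coding genes listed).

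In control hearts 7 of the 16 lower genes and 3 of the 11 higher genes had at least 1000 raw reads. Over all protein-coding genes listed it was the higher genes that more often had so many, 256 of 627 against 161 of 865 lower ones. Of the 6 genes that were higher by at least 1.5-fold in raw reads, 5 had fewer than 100 raw reads in control hearts and none had 1000. Over all protein-coding genes listed, 166 were higher by this measure, 90 of them (54.2%) with fewer than 100 control reads and 44 with at least 1000. Per kilobase of the longest coding transcript, the highest control levels were those of Mb (9126 reads per kb), Hopx (7048), Gja5 (6337), Zfpm1 (3846) and Angpt1 (2975). The lowest control levels per kb were those of Pax6 (1.90), Tdgf1 (3.81) and Meox2 (5.13).

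**Figure D1:**
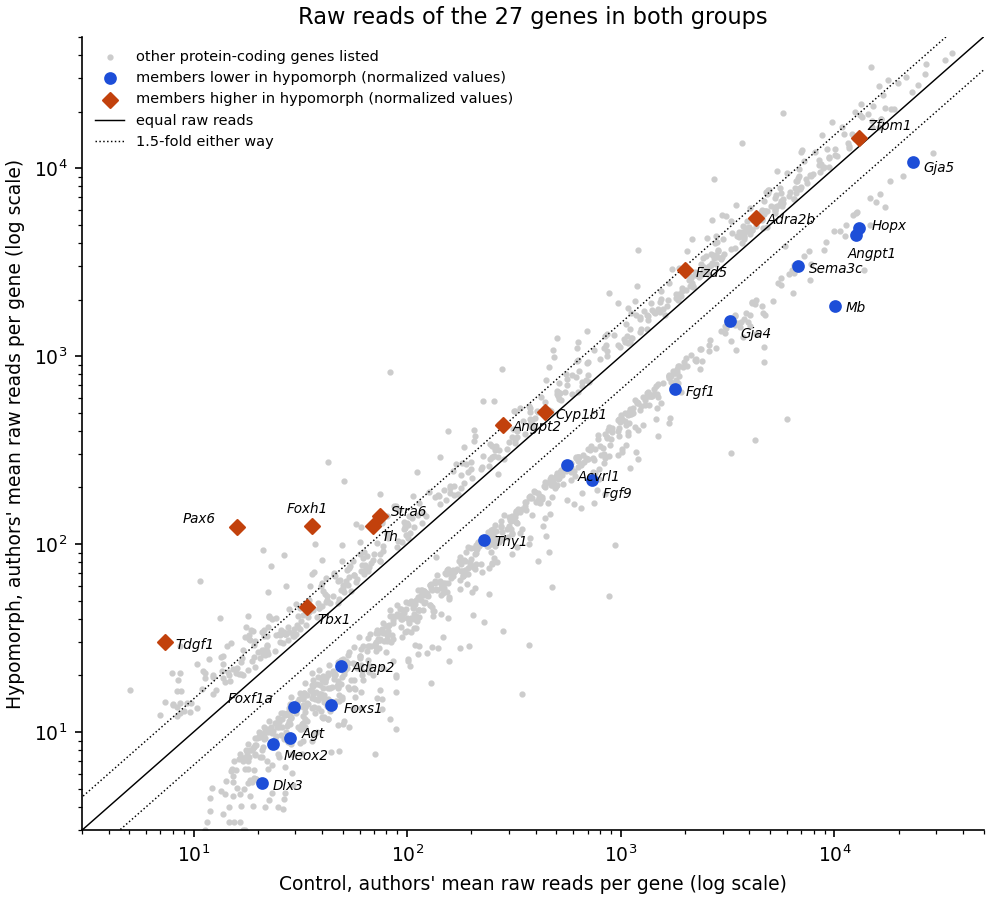
Authors' mean raw reads per gene in control (horizontal) and hypomorphic hearts (vertical), both axes logarithmic, for the 27 genes (coloured by the direction of the normalized values) and the other protein-coding genes listed (grey). All 16 lower genes lie below the lower 1.5-fold line, whereas 6 of the 11 higher genes lie above the upper one. The direction of Zfpm1, Cyp1b1, Adra2b, Gja4 and Acvrl1 turns under 1 of the 5 scalings tried.

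Among the secreted ligands, 5 of 6 were lower and 1 was higher. Beside this and the counts by role below, 58.0% of all protein-coding genes listed were lower and 42.0% higher. The signs of the 6 ligands held under each of the 5 scalings described further on. The sizes did not: under the median ratio Angpt1 (-0.44), Fgf1 (-0.34), Agt (-0.52) and Sema3c (-0.088) were no longer past 1.5-fold, nor was Angpt2 (0.25) under the table's total. The angiopoietins, ligands of the endothelial receptor TEK, differed in opposite directions. Angpt1, the activating ligand, which the embryonic myocardium makes, gave 12661 raw reads in controls against 4389 in hypomorphic hearts (log2 difference -1.06, 2.08-fold lower). Angpt2, which can oppose Angpt1 at the same receptor, had 280 and 430 raw reads (log2 difference 1.12, 2.18-fold higher). Per kb of transcript Angpt1 stayed the higher of the pair in both groups, at 2975 against 78.7 per kb in control and 1031 against 121 per kb in hypomorphic hearts. In NCBIM37 (mm9) Angpt1 lies on chromosome 15 from 42256273 to 42508523, minus strand, and Angpt2 on chromosome 8 from 18690263 to 18741562, minus strand.

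Both FGF genes among the 27 were lower. Fgf9, a signal from epicardium and endocardium to the myocardium, gave 734 raw reads in controls against 220 in hypomorphic hearts (log2 difference -1.24). Fgf1, a growth factor that binds all FGF receptors, had 1795 and 665 raw reads (log2 difference -0.96). Sema3c, a semaphorin that guides neural crest cells into the outflow tract, had 6772 and 2998 raw reads (log2 difference -0.68). Agt, the precursor of angiotensin, had few reads, 28.2 and 9.28 (log2 difference -1.16).

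Of the 6 receptors and other membrane proteins, 4 were higher and 2 lower, though Adra2b and Acvrl1 each changed direction under 1 scaling. Tdgf1 (Cripto), the coreceptor of Nodal, gave 7.33 raw reads in controls against 30.0 in hypomorphic hearts (log2 difference 2.31). Its raw ratio of 4.09 had a 95% counting interval from 2.54 to 6.85 (exact, from reads summed over 3 hearts, covering counting error only and not scaled for depth). A Tdgf1 pseudogene, Tdgf1-ps2, is annotated in mm9, so that reads could be shared with it. Stra6, the receptor that takes up retinol from its binding protein, had 74.7 and 142 raw reads (log2 difference 1.49). Both had few reads in either group.

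Fzd5, a frizzled receptor for Wnt ligands with a known role in yolk sac and placental angiogenesis, gave 2001 raw reads in controls against 2855 in hypomorphic hearts (log2 difference 1.02). Adra2b, an adrenergic receptor, had 4299 and 5457 raw reads (log2 difference 0.97), which turned to -0.024 when raw means were scaled to the table's total. Without globin genes in that total it was 0.33. For Fzd5 and Adra2b the raw ratio, 1.43 and 1.27, stayed under 1.5-fold. Acvrl1, a receptor of the TGF-beta family that acts in endothelium, had 561 and 264 raw reads (log2 difference -0.61), which was 0.00051 when scaled by the median ratio of all genes listed. Thy1, a surface glycoprotein of several cell types, had 228 and 106 raw reads (log2 difference -0.67).

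Both gap junction genes among the 27 were lower, and by nearly the same amount, but neither difference remained under the median ratio, which gave -0.015 for Gja5 and 0.012 for Gja4. That median was itself taken over listed genes, most of them lower. Gja5, a connexin of atrial and trabecular myocardium, the conduction system and arterial endothelium, gave 23246 raw reads in controls against 10822 in hypomorphic hearts (log2 difference -0.62). Gja4, a connexin of arterial endothelium, had 3239 and 1537 raw reads (log2 difference -0.61). The raw ratios were 0.466 (counting interval 0.459 to 0.472) and 0.474 (0.458 to 0.492). These intervals overlap, and the spread between hearts, which would decide whether the ratios differ, is unknown. Nearly equal differences were not particular to this pair, as Acvrl1 was at -0.61 and Adap2 at -0.64. All lay near the 1.5-fold threshold that every listed gene passed. In mm9 Gja5 lies on chromosome 3 from 96708616 to 96881339, plus strand, and Gja4 on chromosome 4 from 126988665 to 126991283, minus strand.

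The promoters of these connexin genes are shown because their differences were nearly equal, and a promoter of Pax6 because, of 26 promoters of the 18 genes found in the promoter table, it alone held a match to 1 of the 2 motifs searched. Each is the 250 bases before a RefSeq transcription start in GRCm38.p6, a later build than mm9, written 5′ to 3′ on the gene's strand.

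Gja5, chr3:97032152-97032401, plus strand: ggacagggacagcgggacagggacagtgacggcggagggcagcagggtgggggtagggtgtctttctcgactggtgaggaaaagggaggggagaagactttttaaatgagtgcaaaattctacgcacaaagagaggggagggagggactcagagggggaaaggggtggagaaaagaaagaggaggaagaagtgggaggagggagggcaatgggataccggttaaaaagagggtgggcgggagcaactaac
Gja4, chr4:127314040-127314289, minus strand: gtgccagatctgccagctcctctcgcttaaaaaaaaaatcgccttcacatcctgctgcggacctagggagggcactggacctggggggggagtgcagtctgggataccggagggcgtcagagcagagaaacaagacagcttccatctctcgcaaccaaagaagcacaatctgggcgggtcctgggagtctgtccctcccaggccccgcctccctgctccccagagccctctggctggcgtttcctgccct
Pax6, chr2:105682213-105682462, plus strand: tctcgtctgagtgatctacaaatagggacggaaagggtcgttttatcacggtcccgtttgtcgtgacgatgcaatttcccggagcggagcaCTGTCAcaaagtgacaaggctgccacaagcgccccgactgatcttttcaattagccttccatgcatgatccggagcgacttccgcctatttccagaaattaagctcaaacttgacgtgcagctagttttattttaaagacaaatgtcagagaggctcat

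The capitals mark a MEIS1 core, TGACAG, on the minus strand, which starts at position -159 from the start site. The NKX2-5 core searched was TNAAGTG, also on both strands. It was in none of the 26 promoters of the 18 genes, against 10.1% of 32851 promoters of all genes. The MEIS1 core was in 1 of the 26, against 15.9% of all promoters. Absence of a match says only that these letters are not in these 250 bases.

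Of the 9 transcription factors and cofactors, 5 were lower and 4 higher. The lower ones were Hopx, with many reads, and 4 genes with few. Hopx, a homeodomain protein of the heart that lacks DNA binding of its own, gave 13011 raw reads in controls against 4791 in hypomorphic hearts (log2 difference -0.97). In mm9 it lies on chromosome 5 from 77515468 to 77544186, minus strand. Foxs1, a forkhead factor of perivascular cells, had 44.0 and 14.0 raw reads (log2 difference -1.22), and Meox2, a homeobox factor of mesoderm and vessels, had 23.7 and 8.67 (log2 difference -1.12). Foxf1a, a forkhead factor of the lateral mesoderm needed for vasculogenesis, had 29.5 and 13.6 raw reads (log2 difference -0.67). Dlx3, a homeobox factor known from the placenta and skin, had 21.0 and 5.33 raw reads (log2 difference -2.03, the lowest of the 27).

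The higher transcription factors had few reads except for Zfpm1. Pax6, a paired-box factor of the eye and forebrain, showed the largest difference of the 27 genes, with 16.0 raw reads in controls against 123 in hypomorphic hearts (log2 difference 3.87). In mm9 it lies on chromosome 2 from 105509053 to 105543317, plus strand. In raw reads its ratio was 7.69 (counting interval 5.68 to 10.6). Foxh1, a forkhead factor that carries Nodal signals with SMAD proteins, had 35.9 and 125 raw reads (log2 difference 2.16, raw ratio 3.49). Tbx1, a T-box factor of pharyngeal mesoderm and the outflow tract, had 33.9 and 46.4 raw reads (log2 difference 1.13). Zfpm1, a cofactor of GATA factors in heart and blood cells, had 13025 and 14400 raw reads (log2 difference 0.61), which became -0.22 when scaled to the table's total. Without globin genes in that total it was 0.13.

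Among the other 4 genes, Mb and Adap2 were lower and Th and Cyp1b1 higher, the last only outside the scaling to the table's total, which gave -0.19. Without globin genes in that total Cyp1b1 was at 0.17. Mb, which encodes the oxygen-binding protein myoglobin, gave 10093 raw reads in controls against 1846 in hypomorphic hearts (log2 difference -1.95, 3.86-fold lower). Its ratio of raw means, 0.183, was the lowest of the 27. In mm9 it lies on chromosome 15 from 76845919 to 76881100, minus strand. Adap2, an Arf GTPase-activating protein, had 49.2 and 22.6 raw reads (log2 difference -0.64). Th, the rate-limiting enzyme of catecholamine synthesis, had 69.5 and 124.5 raw reads (log2 difference 1.31). Cyp1b1, a cytochrome P450 of vascular and ocular cells, had 443 and 502 raw reads (log2 difference 0.63).

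**Figure D2:**
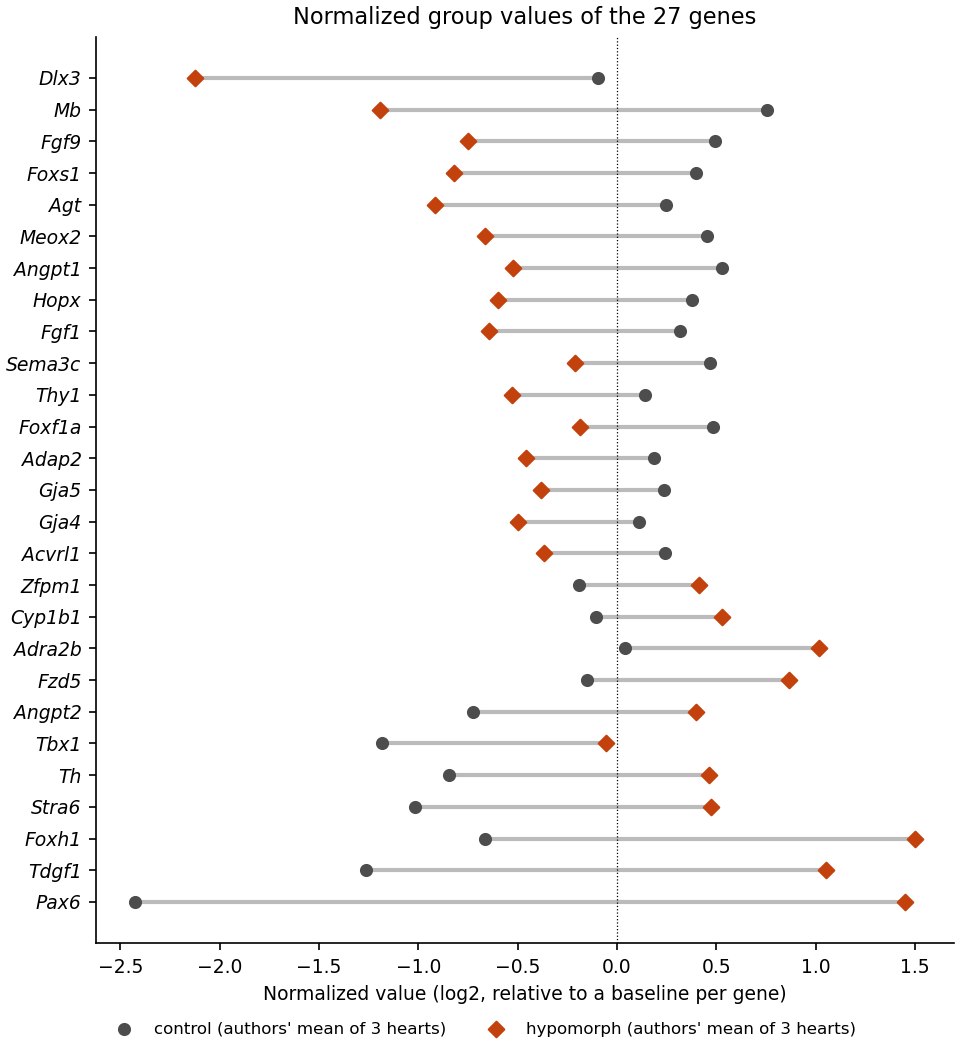
Authors' normalized log2 values of the 27 genes in control (grey circles) and hypomorphic hearts (orange diamonds), each the authors' mean over 3 hearts relative to a baseline per gene, with a line joining the groups. Differences run from -2.03 for Dlx3 to 3.87 for Pax6, and the order from top to bottom is that of the difference. No error can be shown since no value per heart is given, and the sign of Gja4, Acvrl1, Zfpm1, Cyp1b1 and Adra2b turns under 1 other scaling.

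Reads of several of these genes may include those of overlapping genes, since nothing in the methods says that reads were counted by strand. In the mm9 annotation, exons of Mb, Angpt1, Hopx, Gja5, Acvrl1, Adap2 and Pax6 overlap exons of Apol6, Gm17473, Gm15830, Gpr89, Gm16031, Gm11206 and Elp4, respectively, each on the opposite strand. In bulk RNA, fewer cells of a type and less RNA per cell cannot be told apart.

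By term, heart development covered 10 of the 27 genes, 5 lower and 5 higher, and angiogenesis 11, 6 lower and 5 higher. Blood vessel development covered 9 genes, 5 lower and 4 higher, and vasculogenesis 3, 2 lower and 1 higher. Foxf1a, Tbx1, Stra6 and Tdgf1 carried more than 1 of the terms. The genes also shared annotations that the rule did not use. Sequence-specific DNA binding transcription factor activity was attached to 8 of the 27 (29.6%), against 4.49% of all protein-coding genes listed, and extracellular space to 7 (25.9%), against 6.97%. Lung development was attached to 4 (Foxf1a, Stra6, Fgf9 and Fgf1), or 14.8%, against 0.670%. These shares are descriptions, as GO terms of developmental genes are often given together.

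The size of the differences, and for some genes their direction, depended on the scaling between groups. Raw means were compared without scaling, scaled to the table's total, to that total without 6 globin genes, by the median ratio of all genes listed, and by the median factor that the authors' values imply. Relative to no scaling, these shift each gene by -0.37, -0.015, 1.09 and 0.47 on the log2 scale. Without scaling all 16 lower genes stayed past 1.5-fold, while Zfpm1, Cyp1b1, Adra2b, Fzd5 and Tbx1 fell under it. With the table's total, only Foxh1, Tdgf1 and Pax6 stayed higher by 1.5-fold. Zfpm1, Cyp1b1 and Adra2b turned to lower with this total. Without globin genes in it they stayed higher, at 0.13, 0.17 and 0.33. With the median ratio, all 11 higher genes stayed past 1.5-fold, and of the lower ones only Dlx3, Mb and Fgf9 did. Foxh1, Tdgf1, Pax6, Dlx3, Mb and Fgf9 were thus past 1.5-fold under all 5 scalings. The median ratio was taken over genes that had already passed 1.5-fold, and 58.0% of the protein-coding ones were lower. Scaling by it therefore brings lower genes near the threshold close to no difference and keeps higher genes past it. The authors' factor raises values in hypomorphic hearts, so leaving it out moves lower genes away from the threshold. Since the table was made with the authors' factor, genes that another scaling would have added are not in it.

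**Figure D3:**
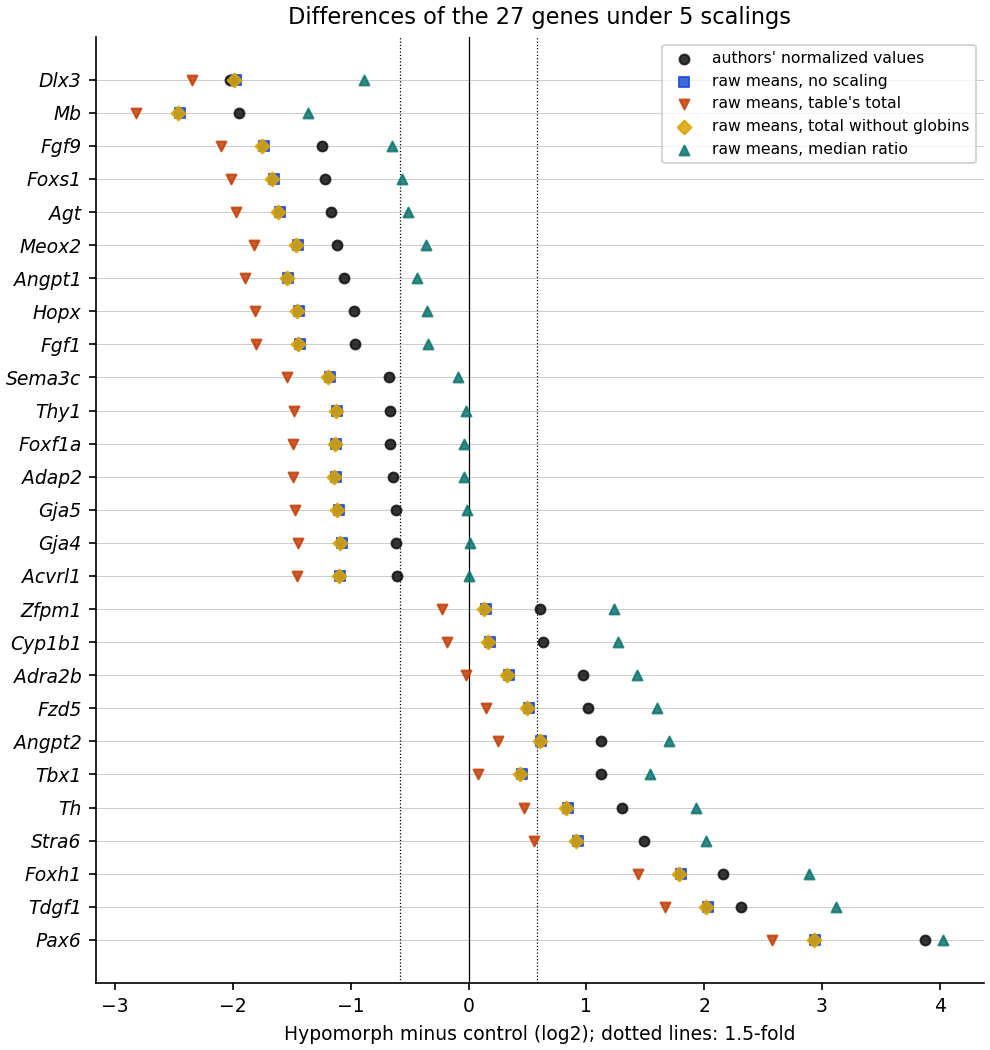
Log2 difference (hypomorph minus control) of each of the 27 genes from the authors' normalized values and from raw means without scaling, scaled to the table's total, to that total without globin genes, and by the median ratio, with dotted lines at 1.5-fold. Dlx3, Mb, Fgf9, Foxh1, Tdgf1 and Pax6 stay outside the dotted lines at every setting, whereas Gja4, Acvrl1, Zfpm1, Cyp1b1 and Adra2b each cross 0 at 1 of them.

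Other genes of the same pathways were counted from lists of textbook members. Beside the counts by direction, 58.0% of all protein-coding genes listed were lower and 42.0% higher. With so few genes per list, a count mostly or wholly in 1 direction is not a result about the pathway. In Nodal and Cripto signalling, 5 of 15 genes were listed and all 5 were higher, though Lefty1 turned to lower with the table's total. Besides Tdgf1 and Foxh1 these were Cfc1, another Nodal coreceptor, with 26.6 and 87.7 raw reads (log2 difference 2.25), and the Nodal inhibitors Lefty2, with a log2 difference of 1.10, and Lefty1, with 97.5 and 121 raw reads (0.79). Of the 5, 4 passed 1.5-fold in raw reads, against 11.1% of all protein-coding genes listed. All 5 had fewer than 100 raw reads in control hearts, as had 54.2% of all protein-coding genes higher by this measure.

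Among 25 genes of the FGF family and its receptors, a list that leaves out Fgf8 and Fgf10, 6 were listed, 5 lower and 1 higher, and none changed sign under a scaling. The lower ones were Fgf1, Fgf9, Fgf7 (103 and 38.1 raw reads, log2 difference -1.02), Fgf11 (-0.69) and Fgf14 (-0.94), and the higher one was Fgf16, with 8.67 and 28.6 raw reads (2.14). Fgf8, left out by the rule, was among the higher genes. No FGF receptor was among the genes listed. Of 15 angiopoietin and VEGF signalling genes, Angpt1, Angpt2 and the scarce Angpt4 (16.9 and 24.6 raw reads) were listed, and neither the receptors Tek and Tie1 nor the VEGF genes and their receptors were. Fgf11 and Fgf14 belong to the FGF family by sequence but act inside the cell and are not ligands of the FGF receptors.

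Of 19 gap junction genes 5 were listed, 4 lower (Gja5, Gja4, Gja3 at -0.83 and Gjd3 at -0.63 in log2 difference, with Gja4 turning under the median ratio) and 1 higher, Gjb5, with 18.7 and 35.0 raw reads. Of 14 class 3 semaphorins and plexins, Sema3b (1478 and 532 raw reads), Sema3c and Sema3e (log2 difference -0.75) were listed, all 3 lower, and of 10 frizzled receptors Fzd5 and Fzd7 (log2 difference 0.86), both higher. Of 22 chamber myocardium genes 7 were listed, 6 lower and 1 higher. Nppa, the atrial natriuretic factor, had 178388 and 80838 raw reads (log2 difference -0.66), and Pln, the inhibitor of the calcium pump of the sarcoplasmic reticulum, had 58680 and 22582 (-0.90). Smpx, a small muscle protein, had 29078 and 12054 raw reads (log2 difference -0.81). The higher one, Myl7, the atrial myosin light chain, had 176094 and 199161 raw reads (log2 difference 0.63), and turned to lower with the table's total.

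Of 30 cardiac transcription factors, a list that leaves out Isl1, 8 were listed, 6 lower and 2 higher. Besides those above these were Irx3 (log2 difference -0.81) and Irx5 (-0.80), Iroquois factors of the ventricle and conduction system. Isl1, left out by the rule, was among the higher genes. Of 15 Notch signalling genes the ligand gene Dll1 was listed, with 1268 and 430 raw reads (log2 difference -1.09), and of 25 BMP and TGF-beta signalling genes Acvrl1 alone. Of 16 genes of retinoic acid handling, Stra6 and Aldh1a1 (log2 difference 0.86) were higher and the degrading enzyme Cyp26a1 lower, with 33.1 and 10.3 raw reads (-1.01).

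Markers of the cell types that a dissected heart can hold were counted in the same way. None of 12 endothelial and endocardial markers, 6 epicardial markers or 10 pharyngeal endoderm and ectoderm markers was among the genes listed, so a change of at least 1.5-fold that passed the authors' test was not recorded for any of them. Red blood cell markers were listed for 9 of 10 genes, all 9 higher, with Hbb-b1 and Alas2 turning to lower under the table's total, and their summed raw reads were 5.69e+06 in control and 8.40e+06 in hypomorphic hearts. Macrophage markers were listed for 4 of 10, all 4 lower (Lyz1, Lyz2, Mrc1 and Emr1, the last turning under the median ratio), with summed raw reads of 5284 and 825. Of 12 markers of neural crest and neurons 4 were listed, Sox10, Th and Pax6 higher and Elavl3 lower, with Sox10 turning under the table's total. Their summed raw reads were 288 and 412. Th and Pax6 are themselves among the heart and blood vessel development genes described here. Their own reads enter this sum, which is therefore no separate measure of cell types for them. The other listed markers differed in opposite directions, with 108 and 123 raw reads for Sox10 and 94.7 and 40.9 for Elavl3. Of 6 smooth muscle and pericyte markers, Myh11 was higher (482 and 1082 raw reads, log2 difference 1.78), and Rgs5 was higher in normalized values (0.96) but lower in raw reads (5862 and 3853). Whether the makeup of the samples had a part in the differences of Th, Pax6, Zfpm1 or the vessel genes was not tested.

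**Figure D4:**
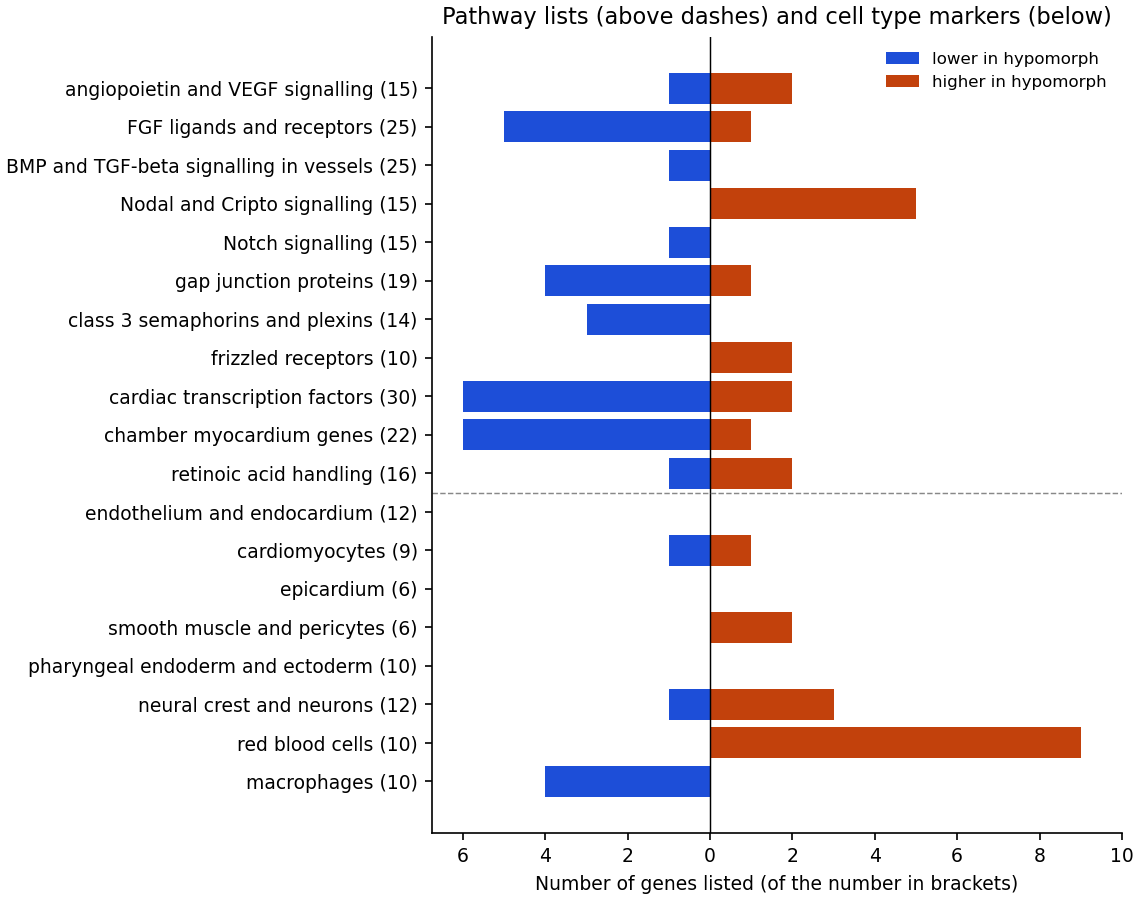
Number of genes listed as lower (left, blue) and higher (right, orange) in hypomorphic hearts by the authors' normalized values, for 11 pathway lists above the dashed line and 8 cell type marker lists below it, with the size of each list in brackets. The 5 Nodal and Cripto genes and the 9 red blood cell genes are all higher and the 4 macrophage genes all lower, while no endothelial, epicardial or pharyngeal marker is listed. Over all protein-coding genes listed, 58.0% are lower and 42.0% higher. Lefty1, Hbb-b1, Alas2, Myl7, Zfpm1 and Sox10 turn to lower with the table's total, Gja4, Acvrl1 and Emr1 to higher with the median ratio, and Rgs5 to lower under 4 of the 5 scalings.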

How the data were processed

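RNA-seq of 3 control and 3 hypomorphic E11.5 hearts was processed by the authors. Reads from an Illumina Genome Analyzer IIx were aligned to mm9 with TopHat (version not given in the sources used here), and the submitters' processing notes also name CASAVA 1.4. Genes were counted and tested in Avadis NGS. The deposited raw values are estimated counts per gene and group, not whole, and were taken as means over 3 hearts. Of 146 group values under 10 reads, 43.8% were whole after multiplication by 3 (tolerance 0.01). Of all raw group values it was 12.1%, so this does not settle that they are means over 3 hearts. The deposited normalized values are log2 values, set against a per-gene baseline that the sources used here do not name. The authors' fold change and direction columns were not used. The depth per heart is unknown, and intervals cover counting error only.

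The members and lists were chosen with earlier results of these data known. All genes that met the rule are named, ordered by role. The planned edgeR test needed counts per heart and was not run. Gene positions and transcript lengths came from GENCODE M1 on NCBIM37 (mm9), and promoters from a RefSeq table on GRCm38.p6, in which 18 of 27 genes were matched by gene ID. The exact interval of a ratio is Clopper-Pearson. Versions were matplotlib 3.10.9, scipy 1.17.1, pandas 2.3.3, numpy 2.4.6 and Python 3.11.15.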

Additional observations from a re-analysis of the deposited data

How the results depend on the processing

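The 16 genes lower by at least 1.5-fold stayed 16 under 4 of the 5 scalings and were 3 with the median ratio, and the 11 higher ones were 6 without scaling, 6 with the total without globin genes and 3 with the table's total. Genes at least 2-fold changed, 15 as reported, numbered 12 to 19 under the scalings. Shares over all protein-coding genes listed were computed for the authors' values (58.0% lower, 42.0% higher, 32.5% at least 2-fold). Without scaling they were computed at 1.5-fold only (58.1% lower, 11.1% higher). For the other counts by direction or size none was computed, so whether the 27 genes differ there from all genes listed is unknown. Requiring 100 raw reads in the higher of both groups left 10 lower genes and 9 of the genes changed 2-fold. A threshold of 2-fold left 7 lower genes, and heart development alone 5 lower and 5 higher. With Isl1, Fgf8 and Epor, which the rule leaves out, 16 genes were lower and 14 higher. A minimum of 10 reads removed no gene. The promoters extended to 300 bases, with 50 after the start, held the NKX2-5 core in 1 gene, Hopx, instead of 0. These promoters are few, and several belong to the same gene and are not independent. Whether the share with the core differs from that of all promoters was therefore not tested at either length. For single genes, values were computed from raw means under 5 scalings and with 1 or 10 reads added to each mean. Of these values 148 kept their direction past 1.5-fold, 36 fell under it and 5 reversed. The reversed values were -0.024 for Adra2b, -0.22 for Zfpm1 and -0.19 for Cyp1b1 with the table's total, and 0.012 for Gja4 and 0.00051 for Acvrl1 with the median ratio. With the total without globin genes, Adra2b was at 0.33, Zfpm1 at 0.13 and Cyp1b1 at 0.17. Each scaling adds the same shift to all genes, so a turn marks a raw ratio near that shift. The median ratio comes from genes that had passed 1.5-fold, most of them lower. The cause of the differences was not tested. No paired analysis was possible because values are given per group and not per heart, and for the same reason no heart was left out in turn. Counting intervals, chosen after seeing the data, bear little on the 27 raw ratios, since the genes were listed by a test of read counts and raw ratios are not scaled for depth. Genes under 50 reads have few reads behind each ratio, and depth per heart is unknown.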

Other observations

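For most of the 27 genes the normalized difference exceeded the log2 ratio of raw means by an amount near the median of 0.47 (quartiles 0.44 and 0.50 over all protein-coding genes listed). The amount was 0.93 for Pax6, 0.67 for Tbx1 and 0.63 for Adra2b, and it was -0.049 for Dlx3 and 0.28 for Tdgf1. For Pax6, 2.01% of all protein-coding genes listed lay as far from the median, and for Dlx3 1.47%. The normalized differences of Pax6 and Dlx3 therefore depart from their raw ratios by other than the factor common to most genes.

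Dlx3 and Tbx1 had normalized values below 0 in both groups (-0.097 and -2.12 for Dlx3, -1.18 and -0.057 for Tbx1), and Adra2b had values above 0 in both (0.041 and 1.02). In the other 24 genes the groups lay on opposite sides of 0. Over the whole table the share of protein-coding genes with both groups on the same side was 6.43%. The groups' values are not mirror images around 0, and the baseline is not named in the sources used here.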
